A study of Homo sapiens with 10 samples.

Results

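The region described is the MYC gene with the sequence 1 Mb to either side of it. It covers every consensus ZEB1 site on chromosome 8 whose midpoint lay within 1 Mb of either end of MYC (gene ID 4609, chr8:127735434-127742951, GRCh38). This rule chose 101 of the 52981 consensus sites, and no measured value entered it. The sites are numbered 1 to 101 in order of position. Of these, 32 lay before MYC, 5 lay in MYC or within 5 kb of it, 4 lay between MYC and PVT1, 29 lay inside PVT1 (chr8:127794524-128101256) and 31 lay beyond PVT1. The window ended between site 1 (chr8:126821648-126821837, 17.5 CPM in control cells) and an omitted site at chr8:126678571-126678729 (4.98 CPM). At the other end it fell between site 101 (chr8:128734467-128734703, 11.2 CPM) and an omitted site at chr8:128776835-128776915 (4.37 CPM).

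MYC encodes a transcription factor that pairs with MAX, binds E-box DNA and drives genes of cell growth, ribosome production and metabolism. It is among the genes most often deregulated in cancer, triple-negative breast cancer included. Few other protein-coding genes lie around it, and the surrounding sequence holds long non-coding RNA genes and many enhancers that contact the MYC promoter from afar. PVT1, a long non-coding RNA gene downstream of MYC, hosts several microRNA genes and some of these enhancers. ZEB1 is a zinc finger factor of the epithelial-mesenchymal transition that recognises E-boxes of the form CAGGTG or CAGGTA.

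ZEB1 occupancy was measured by CUT&RUN, in which an antibody guides a nuclease to the sites of a protein and the released fragments are sequenced. The labels also mention Tn5, which is not part of that assay, and the conflict was not resolved. The cells are a line labelled MDA_Parental, described as Er-/Pr-/Her2-, and the 4 conditions were untreated control cells and cells labelled MDA_ERI after 24, 48 or 72 h in 300 nM eribulin (spelled Erubilin in the labels), a microtubule inhibitor. The 3 times share 1 control without a stated time, so the drug's effect and that of longer culture cannot be told apart, and binding data offer no marker with which to check the labelled cell type.

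Each condition had 2 ZEB1 libraries, and the 2 IgG libraries of the series were not analysed here. Library totals over consensus sites lay between 1130706 and 3561455 counts, the control libraries being the deepest. Within a condition, the 2 libraries differed less than sampling noise allows, with a chi-square per degree of freedom of 0.830 in control and 0.886, 0.928 and 0.951 at 24, 48 and 72 h, so each pair was counted as 1 sample. The edgeR test therefore compares these libraries, not independently treated cultures, and intervals cover counting error only. Levels are CPM (counts scaled to library size) after TMM scaling, which takes the typical site as unchanged. A change is thus relative to other sites, and a change of ZEB1 signal at all sites together would not appear in it. When the libraries were scaled to the genome-wide background of the peak caller instead, the median of all tested sites was -0.91, -1.42 and -1.50 on the log2 scale at 24, 48 and 72 h.

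In control cells the region was rich in ZEB1 signal. Its median site had 31.4 CPM, against 12.4 CPM over all 46436 tested sites, and per kb of site the medians were 108 and 49.9 CPM. The region's 101 sites covered 34389 bp and held 0.493% of all counts in consensus sites. Signal was concentrated in a few places: the 5 strongest sites held 24.8% of the region's CPM and the 10 strongest held 38.4%. The strongest was site 30 (chr8:127668456-127669209), 66.6 kb before MYC in the non-coding gene LOC105375754. It ranked 43 of 52981 sites in control cells.

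**Figure D1:**
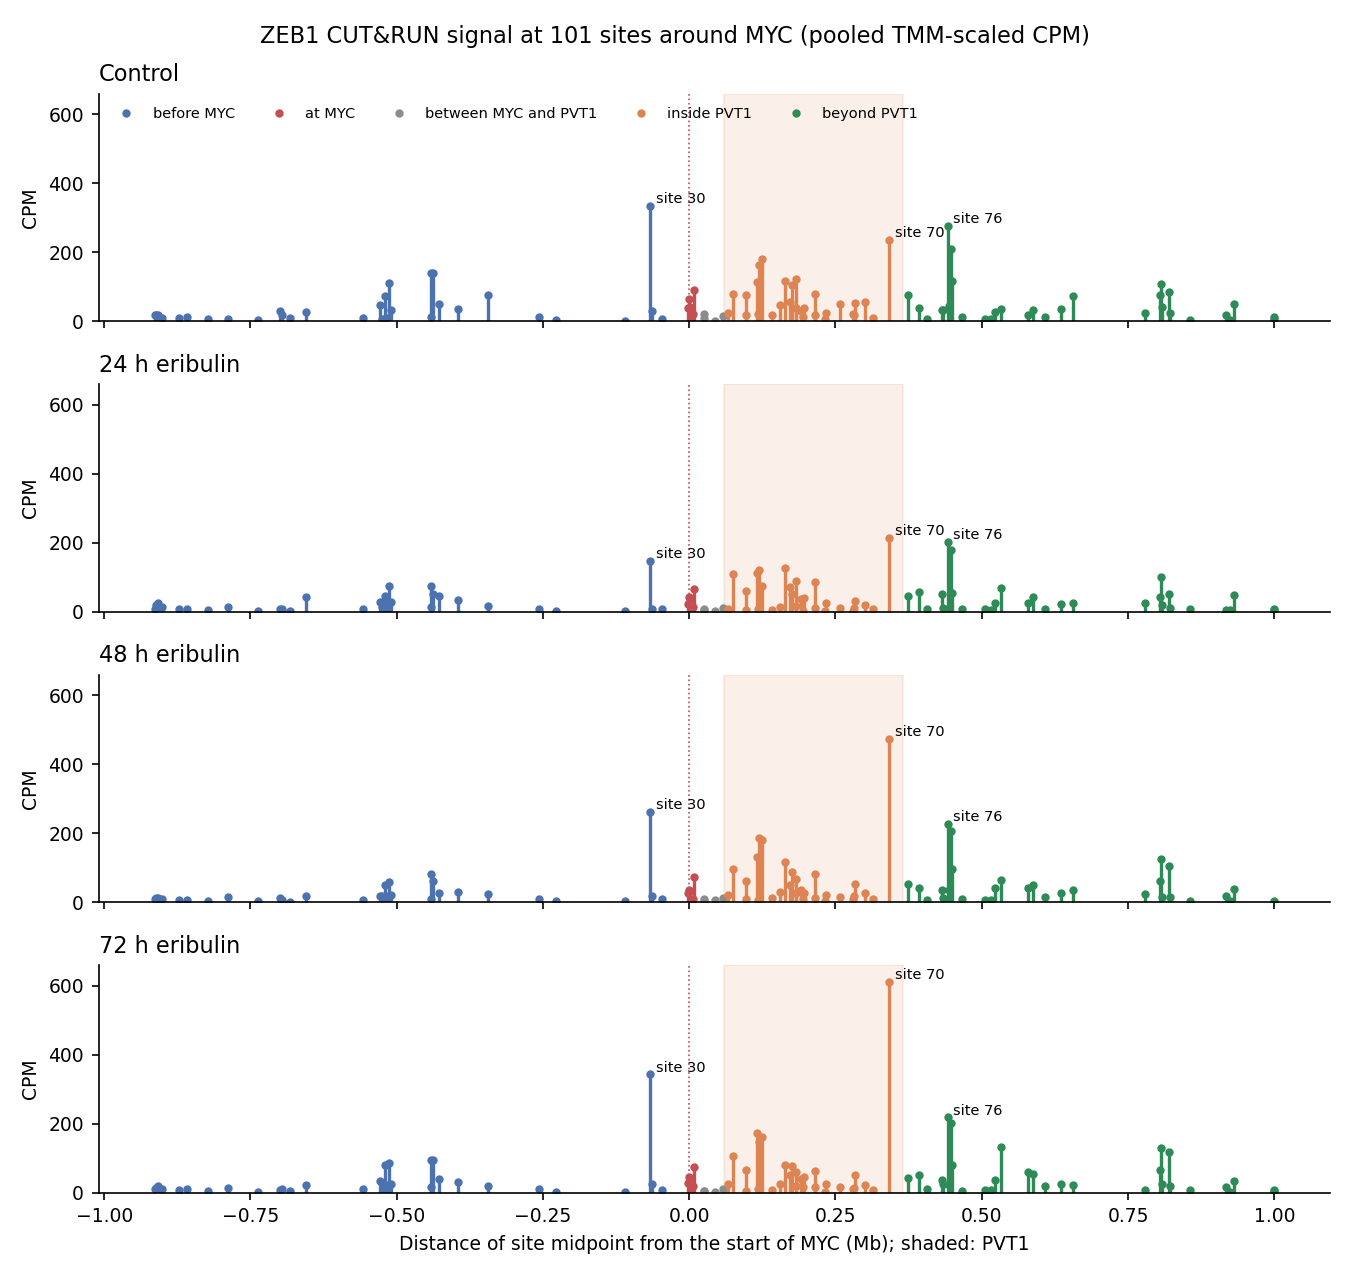
Pooled TMM-scaled CPM (y axis) of the 101 sites against the distance of the site midpoint from the start of MYC in Mb (x axis), 1 panel per condition, with colours for position and shading for PVT1. Site 30 was highest in control cells (334 CPM), and site 70 inside PVT1 was highest at 24, 48 and 72 h (214, 475 and 612 CPM).

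After 24 h of eribulin, ZEB1 signal fell over much of the region, relative to sites elsewhere. The edgeR quasi-likelihood test, with Benjamini-Hochberg adjustment over all tested sites at 0.05, called 51 of the 95 tested region sites lower (53.7%), against 26.8% of all tested sites. It called 13 region sites higher (13.7%), against 28.1% of all tested sites, and without 24 h library 1 this count was 8. The median log2 change was -0.45 in the region and 0.02 over all tested sites. Summed CPM over the region was 3609 and 3565 in the 24 h libraries, against 4956 and 5032 in the control libraries. The log2 ratio of the pooled sums was -0.48 (95% counting interval -0.51 to -0.45), and the 24 h libraries lay below both controls.

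Under TMM scaling the decrease was smaller at 48 and 72 h. At 48 h, 38 sites were lower (40.0%), against 16.9% of all tested sites, and 10 were higher (10.5%), against 16.8% of all. At 72 h, 31 sites were lower (32.6%), against 17.0% of all, and 13 were higher (13.7%), against 18.9% of all. Without 72 h library 1, 18 sites were called lower at 72 h. Region medians were -0.32 and -0.22 on the log2 scale at 48 and 72 h. Summed CPM was 4376 and 4378 in the 48 h libraries and 4754 and 4937 in the 72 h libraries. The pooled log2 ratios to control were -0.19 (-0.22 to -0.16) at 48 h and -0.04 (-0.08 to -0.01) at 72 h. By 72 h the summed signal was thus close to the control level, while 31 single sites were still called lower. This closeness rested in large part on site 70, a strong PVT1 site described below. It had 612 CPM at 72 h, against 235 CPM in control cells, within pooled region sums of 4842 and 4991 CPM. Under background scaling 84, 91 and 89 of the 95 sites were lower at 24, 48 and 72 h, against 65.0%, 83.5% and 82.9% of all tested sites, and 1, 0 and 1 were higher, against 6.07%, 3.70% and 2.39% of all. The summed log2 ratios were then -1.41, -1.61 and -1.55, so under that scaling the decrease was not smaller at the later times.

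Between the treated times, more region sites gained signal than lost it under TMM scaling, and for both comparisons with 24 h the order turned under background scaling. Over 24 h, 22 region sites were higher at 48 h (16.8% of all tested sites were) and 11 were lower (14.4% of all). Without 24 h library 2, or 48 h library 1 or 2, the count of lower sites was 7, 6 and 5. Over 48 h, 10 sites were higher at 72 h (2.82% of all) and 3 were lower (2.40% of all). Without 48 h library 1, 48 h library 2 or 72 h library 2, the 10 became 6, 6 and 3, and without 48 h library 2 or 72 h library 1 the 3 became 1 and 0. Over 24 h, 28 sites were higher at 72 h (19.4% of all) and 7 were lower (16.4% of all), the lower count being 4 without 72 h library 1. Under background scaling, an alternative added for these comparisons after the data were seen, 40 sites were lower and 10 higher for 48 over 24 h (41.1% and 7.64% of all), 28 lower and 11 higher for 72 over 24 h (43.4% and 7.63% of all), and 4 lower and 8 higher for 72 over 48 h (3.49% and 1.91% of all). Under TMM scaling, of the 95 tested sites, 23 were lower at all 3 times (8 of them inside PVT1), 6 were higher at all 3 times (none inside PVT1) and 18 were called at no time. A further 11 were lower at 24 and 48 h only, and 11 were lower at 24 h only. No share over all tested sites is given for these patterns, so whether their counts are unusual cannot be told.

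**Figure D2:**
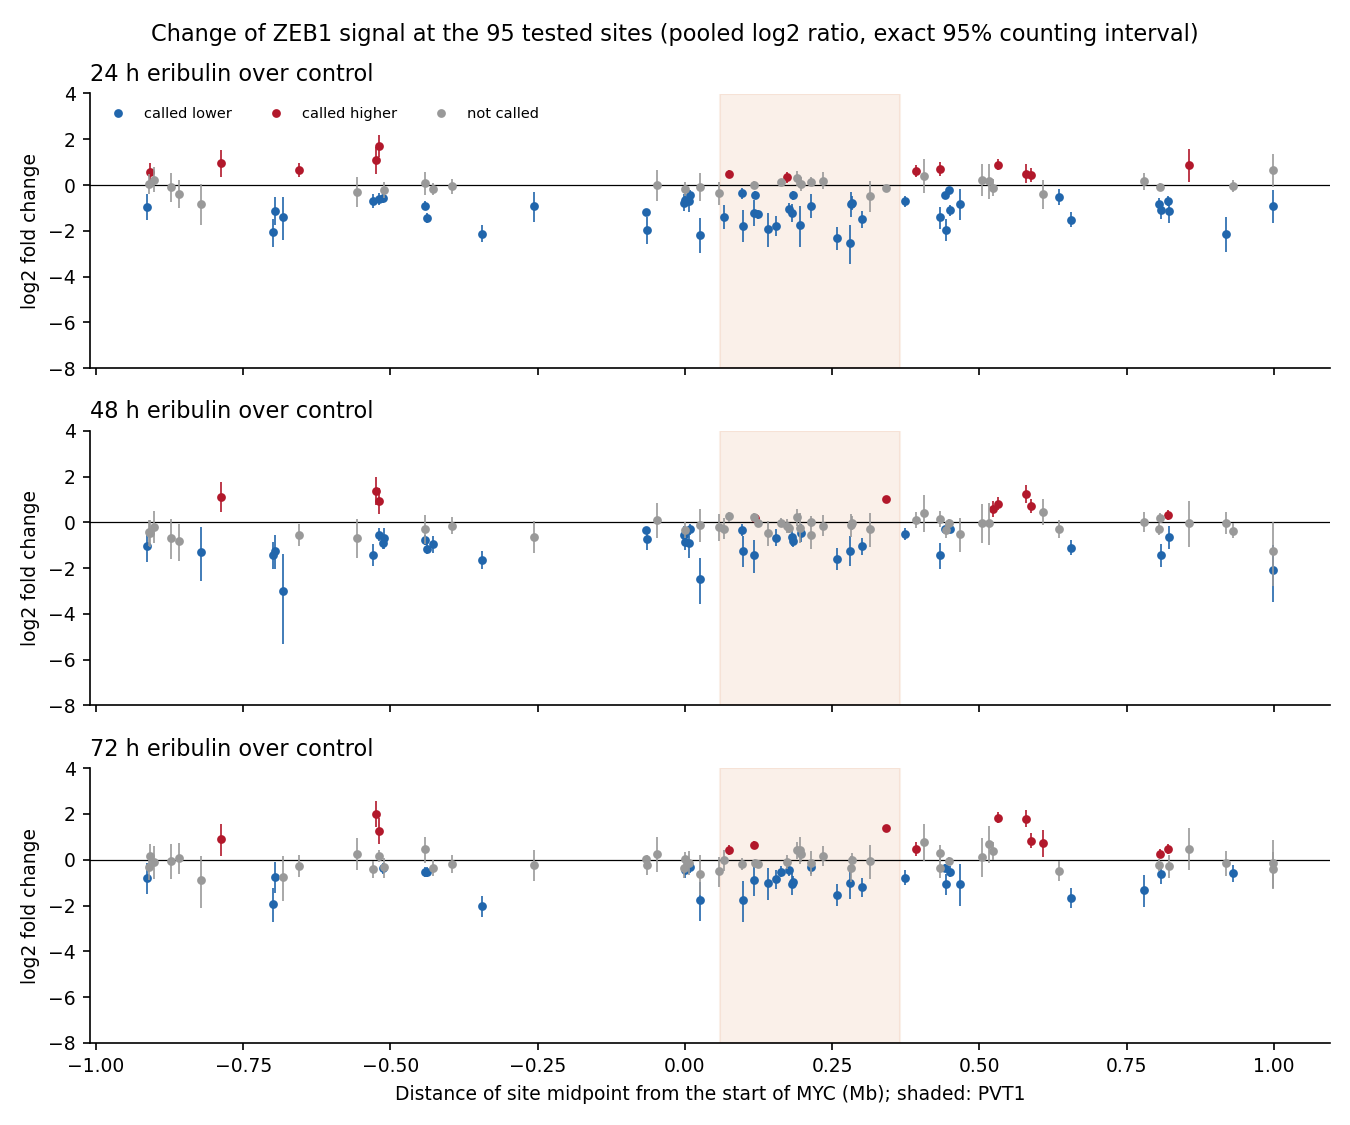
Log2 ratio of pooled, TMM-scaled signal to control (y axis) at the 95 tested sites against distance from the start of MYC in Mb (x axis), for 24, 48 and 72 h, with exact 95% counting intervals as bars and PVT1 shaded. Of the sites, 51, 38 and 31 were called lower at 24, 48 and 72 h, and 13, 10 and 13 were called higher.

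A stricter test treated each condition as 1 culture and assumed a coefficient of variation of 0.2 between cultures, a value chosen and not measured. It called 19 region sites lower at 24 h (7.38% of all tested sites), 9 at 48 h (2.22% of all) and 6 at 72 h (2.43% of all). It called 1 site higher at 24 h (8.70% of all), 0 at 48 h (5.87% of all; 4 region sites at an unadjusted p under 0.05) and 4 at 72 h (6.31% of all). Of the 5 tested sites at MYC, this test called 0 lower and 0 higher at each time. Some of the region sites that fell under it are named below.

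The region was set beside sites of like strength elsewhere and beside the rest of its chromosome. Tested sites elsewhere in the genome with a control level between 16.2 and 73.5 CPM, the lower and upper quartiles of the region's own levels, numbered 16172. Their median log2 changes were -0.25, -0.19 and -0.21 at 24, 48 and 72 h. Of them 42.3%, 28.1% and 29.3% were lower and 18.9%, 10.5% and 13.2% were higher. The 47 region sites in the same range had medians of -0.69, -0.53 and -0.34, and 59.6%, 48.9% and 36.2% were lower. Of these 47 sites 17.0%, 8.51% and 8.51% were higher. At 24 and 48 h the higher shares were thus near those of sites of like strength elsewhere. The 1963 tested sites elsewhere on chromosome 8 had medians of 0.03, -0.01 and -0.01. Sites elsewhere in sequence as poor in genes, with at most 3 protein-coding genes within 1 Mb, had medians of 0.73, 0.30 and 0.11 (n = 1334). These last 2 sets were not matched for strength. Their median control levels were 11.5 CPM on the rest of chromosome 8 and 7.84 CPM in gene-poor sequence, against 31.4 CPM in the region. These are descriptions of the sets, with no test of the difference.

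**Figure D3:**
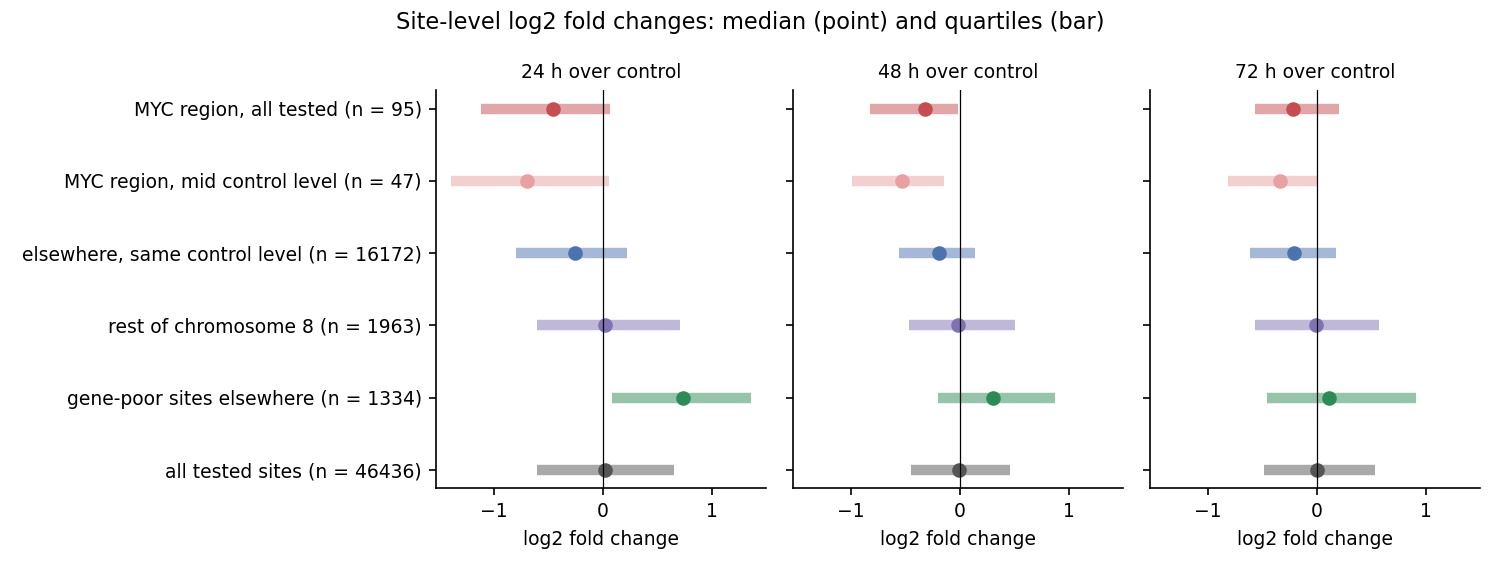
Median (point) and quartiles (bar) of site-level log2 changes (x axis) for the region, its sites of middle control level and 4 comparison sets (rows), at 24, 48 and 72 h over control. Region sites of middle control level had medians of -0.69, -0.53 and -0.34 at 24, 48 and 72 h, against -0.25, -0.19 and -0.21 for sites of the same level elsewhere.

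At the MYC gene, ZEB1 signal fell at the promoter and on both sides of the gene by the edgeR quasi-likelihood test. With the assumed variation of 0.2, 0 of the 5 sites there were called at any time. Site 34 (chr8:127735135-127735486) lies over the start of MYC. It had 35.7 and 47.4 CPM at 24 h, 34.8 and 36.2 CPM at 48 h and 55.0 and 38.0 CPM at 72 h, against 64.9 and 64.2 CPM in control cells. All 6 treated libraries lay below both controls. The log2 change was -0.64 (-0.91 to -0.37) at 24 h, -0.86 (-1.20 to -0.54) at 48 h and -0.46 (-0.78 to -0.15) at 72 h, and all 3 were called. Among the 52981 sites the promoter site ranked 4530, 6413 and 4022 at 24, 48 and 72 h (the top 8.55%, 12.1% and 7.59%), against rank 2377 in control cells (the top 4.49%). With the assumed variation of 0.2 the changes at site 34 did not pass, with adjusted p values of 0.318, 0.278 and 0.621 by edgeR's likelihood ratio test.

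The neighbouring sites moved to different degrees. Site 33 (chr8:127734015-127734292) lies 1.3 kb before the gene start, beside a boundary of the non-coding gene CASC11, whose strand the gene table does not give. It had 22.6 and 22.7 CPM at 24 h, 30.2 and 22.9 CPM at 48 h and 29.6 and 29.9 CPM at 72 h, against 39.4 and 37.4 CPM in control cells. It was lower by the test at 24 h (-0.76) and 48 h (-0.54), and at 72 h (-0.37) it was not called, although all 6 treated libraries lay below both controls. Site 35 (chr8:127735895-127736328), 0.7 kb inside MYC, had 36.7 and 36.9 CPM at 24 h, 37.0 and 29.5 CPM at 48 h and 38.9 and 45.3 CPM at 72 h, against 41.4 and 41.9 CPM in control cells. It was called at no time, the groups overlapping at 72 h, and its interval at 72 h ran from -0.34 to 0.35.

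Toward the far end of MYC, site 36 (chr8:127741746-127741950) had 12.1 and 13.2 CPM at 24 h, 12.8 and 8.86 CPM at 48 h and 17.8 and 19.0 CPM at 72 h, against 19.0 and 21.9 CPM in control cells. It fell at 24 h (-0.69) and 48 h (-0.91) and was not called at 72 h (-0.15). Whether sites 35 and 36 lie in exons or introns was not resolved, since the gene table used gives only gene ends. Site 37 (chr8:127742972-127743580), 0.3 kb past the gene, was the strongest of the 5. It had 73.9 and 60.1 CPM at 24 h, 68.8 and 79.7 CPM at 48 h and 63.5 and 84.2 CPM at 72 h, against 89.5 and 92.6 CPM in control cells. All treated libraries were below both controls, and it was called lower at each time, with log2 changes of -0.44, -0.29 and -0.31.

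Summed over the 5 sites at MYC, signal was 181, 180 and 210 CPM at 24, 48 and 72 h, against 256 CPM in control cells. At 24 h this change was not separable from that of the other region sites (log2 difference -0.03, interval -0.16 to 0.10). The difference was -0.33 (-0.48 to -0.18) at 48 h and -0.25 (-0.40 to -0.10) at 72 h. Part of this rested on site 70, a strong PVT1 site described below. With it left out of the other sites, a choice made after its values were seen, the difference was -0.23 (-0.38 to -0.08) at 48 h, and at 72 h it was -0.12, with an interval of -0.27 to 0.03 that includes 0. Of the 5, the test called 4, 4 and 2 lower at 24, 48 and 72 h and none higher, with each of the 5 having a log2 value below 0 at 24 and 48 h. Among all tested sites 26.8%, 16.9% and 17.0% were lower and 28.1%, 16.8% and 18.9% were higher. The authors' lists hold a peak over all 5 in control cells, and over 4, 4 and 2 of them at 24, 48 and 72 h. Over all 52981 sites the shares with a peak were 86.6% in control cells and 61.3%, 39.4% and 32.1% at those times.

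Between MYC and PVT1, site 38 lost most of its signal. This site (chr8:127760244-127760456), 17.4 kb past MYC, had 4.02 and 5.27 CPM at 24 h, 6.80 and 0.738 CPM at 48 h and 5.93 and 6.34 CPM at 72 h, against 18.4 and 23.6 CPM in control cells. The groups were far apart, with every treated library under 7 CPM. The log2 changes were -2.15 (-2.96 to -1.45), -2.46 (-3.57 to -1.56) and -1.75 (-2.67 to -0.97), and it also fell under the assumed variation of 0.2 at each time, with adjusted p values of 0.00147, 0.000781 and 0.0243. The authors' lists hold a peak there only for control cells. Site 39 (chr8:127760688-127761048), 0.5 kb further on, had pooled levels of 9.52, 9.34 and 6.56 CPM at 24, 48 and 72 h, against 10.1 CPM in control cells, and was not called.

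Site 40 (chr8:127780029-127780135), 37.1 kb past MYC, had too few counts to be tested. It had 1.01 and 2.11 CPM at 24 h, 7.56 and 5.90 CPM at 48 h and 1.69 and 2.72 CPM at 72 h, against 0.283 and 0.645 CPM in control cells, and a peak was listed only at 48 h. On the other side of MYC, site 32 (chr8:127688133-127688416), 47.2 kb before the gene, had pooled levels of 7.98, 8.59 and 9.63 CPM, against 8.0 CPM in control cells, and was not called at any time.

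**Figure D4:**
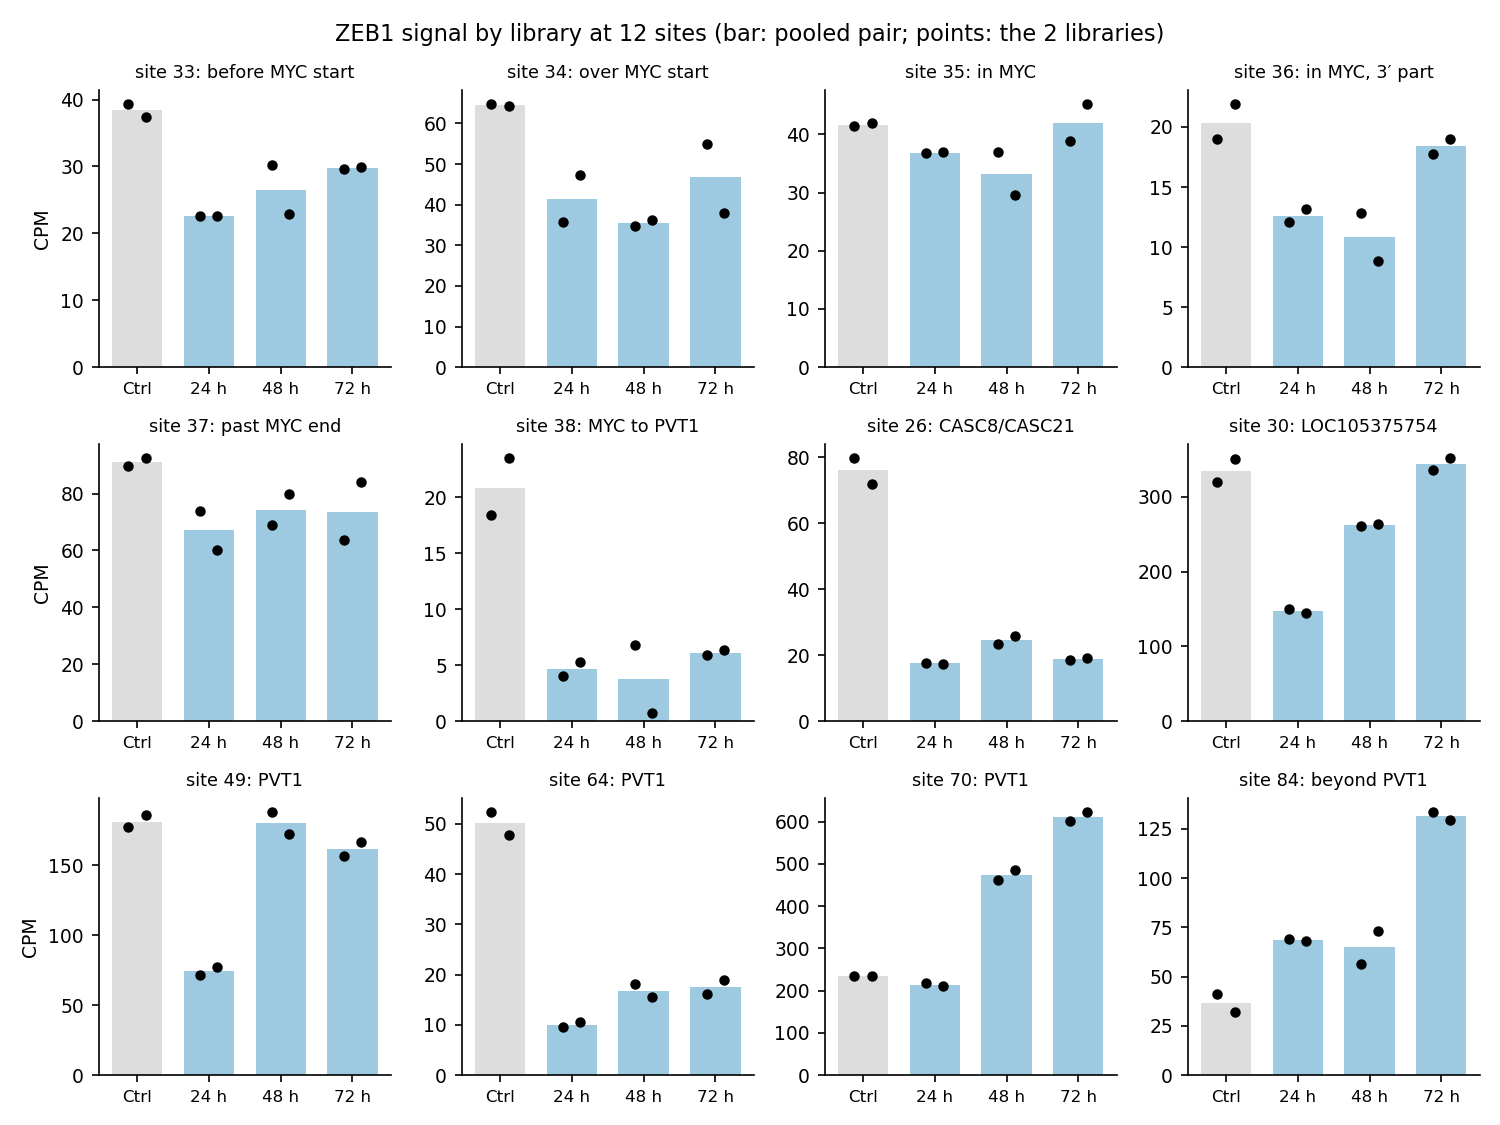
TMM-scaled CPM (y axes, each from 0) at 12 sites in control cells and after 24, 48 and 72 h, with bars for the pooled pair and points for the 2 libraries. Site 38 fell to 4.63, 3.73 and 6.13 CPM at 24, 48 and 72 h, against 20.8 CPM in control cells, while site 70 reached 612 CPM at 72 h, against 235 CPM in control cells.

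Before MYC, the strongest site of the region fell at 24 h and, under TMM scaling, was near its control level at 72 h. Site 30, described above, had 150 and 144 CPM at 24 h, 261 and 264 CPM at 48 h and 335 and 352 CPM at 72 h, against 320 and 351 CPM in control cells. The 24 h and 48 h libraries lay below both controls, and those of 72 h overlapped them. Its log2 change was -1.18 (-1.32 to -1.05) at 24 h and -0.35 (-0.47 to -0.23) at 48 h, both called, and 0.04 (-0.08 to 0.16) at 72 h, which was not. Under background scaling the 72 h value was -1.47 and was called lower. The 24 h change also passed with the assumed variation of 0.2 (adjusted p = 0.0351). Its rank among all sites was 43 in control and 182, 100 and 71 at 24, 48 and 72 h.

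Further from MYC, sites in the overlapping non-coding genes CASC8 and CASC21 were among those that fell most. Site 26 (chr8:127391231-127391627), 344.0 kb before MYC and 22.0 kb from POU5F1B, a retrogene related to the stem cell factor POU5F1, had 17.6 and 17.4 CPM at 24 h, 23.4 and 25.8 CPM at 48 h and 18.6 and 19.0 CPM at 72 h, against 79.9 and 71.9 CPM in control cells. Its log2 changes of -2.12 (-2.51 to -1.75), -1.63 (-2.02 to -1.26) and -2.01 (-2.50 to -1.57) were called at every time, also with the assumed variation of 0.2 (adjusted p = 0.000225, 0.00704 and 0.00102). Its 72 h libraries stayed under 20 CPM.

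Site 23 (chr8:127297619-127298027), 437.6 kb before MYC in the same non-coding genes, had 58.3 and 44.3 CPM at 24 h, 57.4 and 67.9 CPM at 48 h and 94.8 and 96.9 CPM at 72 h, against 133 and 145 CPM in control cells. It was called lower at all times, with log2 changes of -1.43, -1.14 and -0.53 and with 72 h libraries that had regained part of the level. Its neighbour site 22 (chr8:127294697-127295218) had pooled levels of 74.4, 82.1 and 95.4 CPM, against 140 CPM in control cells, and was also called lower throughout (-0.91, -0.76 and -0.55). Beside them, site 21 (chr8:127294179-127294292) had a peak only at 24 h, but its pooled levels of 13.9, 10.8 and 17.9 CPM, against 13.1 CPM in control cells, were not called different.

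A pair of sites in CCAT1, a non-coding gene first described in colon cancer, went the other way. Site 16 (chr8:127210495-127210624), 524.9 kb before MYC, had 13.6 and 16.3 CPM at 24 h, 19.6 and 17.0 CPM at 48 h and 25.4 and 30.8 CPM at 72 h, against 6.23 and 8.07 CPM in control cells. All treated libraries lay above both controls, with log2 changes of 1.07, 1.36 and 1.97, called at each time. Under background scaling these values were 0.14, -0.06 and 0.47. The authors list no control peak there and a peak at each of the 3 times.

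Site 18 (chr8:127216299-127216489), 519.0 kb before MYC, had 30.7 and 29.0 CPM at 24 h, 21.2 and 14.0 CPM at 48 h and 22.0 and 21.7 CPM at 72 h, against 9.63 and 8.71 CPM in control cells. It was called higher at each time (1.69, 0.93 and 1.24), and was the only region site called higher at 24 h with the assumed variation of 0.2. Under background scaling its 24 h value stayed above 0 (0.76) and those of 48 and 72 h were -0.49 and -0.25. A further site with no control peak, site 29 (chr8:127625334-127625342), is 9 bp wide, held at most 3.69 CPM in any library and was not tested. Over all 32 sites before MYC, summed CPM was 804, 846 and 1122 at 24, 48 and 72 h, against 1314 in control cells. Of the 29 tested, 13, 15 and 7 were lower (44.8%, 51.7% and 24.1%, against 26.8%, 16.9% and 17.0% of all tested sites) and 5, 3 and 3 were higher (17.2%, 10.3% and 10.3%, against 28.1%, 16.8% and 18.9% of all).

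Inside PVT1, 18 of the 28 tested sites were lower at 24 h (64.3%, against 26.8% of all tested sites) and 2 were higher (7.14%, against 28.1% of all). At 48 h 10 were lower (35.7%, against 16.9%) and 2 higher (7.14%, against 16.8%), and at 72 h 12 were lower (42.9%, against 17.0%) and 3 higher (10.7%, against 18.9%). Under background scaling all 28 were lower at each time. The summed signal of the 29 sites was 1379, 1883 and 1976 CPM at 24, 48 and 72 h, against 1836 CPM in control cells. On the TMM scale it fell to 75.1% of control at 24 h and was 103% and 108% of control at 48 and 72 h, although more sites were lower than higher at both of these times.

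Site 70 (chr8:128076613-128077228), 334.0 kb past MYC, carries that difference. It had 217 and 211 CPM at 24 h, 463 and 486 CPM at 48 h and 601 and 624 CPM at 72 h, against 235 and 235 CPM in control cells. The 24 h libraries lay just below the controls and were not called different (-0.13), while those of 48 and 72 h lay far above all others. The log2 change was 1.01 (0.91 to 1.12) at 48 h and 1.38 (1.28 to 1.49) at 72 h, and under background scaling these were -0.41 and -0.12. With the assumed variation of 0.2 the adjusted p was 0.126 at 48 h and 0.0172 at 72 h. Site 70 moved from rank 111 among all sites in control to ranks 79, 40 and 28 at 24, 48 and 72 h, and at 72 h it alone held 12.6% of the region's CPM.

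With site 70 included, PVT1 sites changed less downward than the other region sites, by log2 differences of 0.10 (0.04 to 0.16), 0.38 (0.31 to 0.44) and 0.25 (0.18 to 0.31) at 24, 48 and 72 h. Without site 70, a choice made after its values were seen, the differences were 0.06 (-0.01 to 0.12), 0.15 (0.09 to 0.22) and -0.09 (-0.16 to -0.02). The direction at 72 h thus rested on this site.

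The other strong PVT1 sites differed from each other. Site 49 (chr8:127859722-127860165) had 71.4 and 77.5 CPM at 24 h, 188 and 172 CPM at 48 h and 157 and 167 CPM at 72 h, against 177 and 186 CPM in control cells. It fell at 24 h alone (-1.28, interval -1.47 to -1.10; adjusted p = 0.0225 with the assumed variation of 0.2), and its 48 h libraries overlapped the controls. Site 48 (chr8:127854034-127854801) had pooled levels of 120, 187 and 147 CPM, against 162 CPM in control cells. It was called lower at 24 h (-0.43), higher at 48 h (0.21, and -1.22 under background scaling) and not at 72 h (-0.14).

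Site 46 (chr8:127851508-127852355) had pooled levels of 112, 131 and 174 CPM, against 113 CPM in control cells, and was called only at 72 h (0.63, and -0.87 under background scaling). Site 52 (chr8:127898980-127899783) had pooled levels of 126, 116 and 81.4 CPM, against 117 CPM in control cells, and was lower at 72 h alone (-0.52). Site 43 (chr8:127809428-127810457), 13.9 kb from the microRNA gene MIR1204, had pooled levels of 111, 95.6 and 106 CPM, against 79.9 CPM in control cells. It was called higher at 24 h (0.47) and 72 h (0.41), and under background scaling those values were -0.46 and -1.09.

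Other PVT1 sites fell and stayed low. Site 64 (chr8:127992804-127993387), 15.8 kb from MIR1206, had 9.56 and 10.5 CPM at 24 h, 18.1 and 15.5 CPM at 48 h and 16.1 and 19.0 CPM at 72 h, against 52.4 and 47.7 CPM in control cells. Its log2 changes of -2.32 (-2.84 to -1.84), -1.58 (-2.06 to -1.13) and -1.52 (-2.03 to -1.05) were called, also with the assumed variation of 0.2 (adjusted p = 0.000111, 0.0137 and 0.0222), and a peak is listed there only for control cells. Site 56 (chr8:127918412-127918876) had pooled levels of 88.8, 68.7 and 61.7 CPM, against 121 CPM in control cells, with called log2 changes of -0.45, -0.82 and -0.97.

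**Figure D5:**
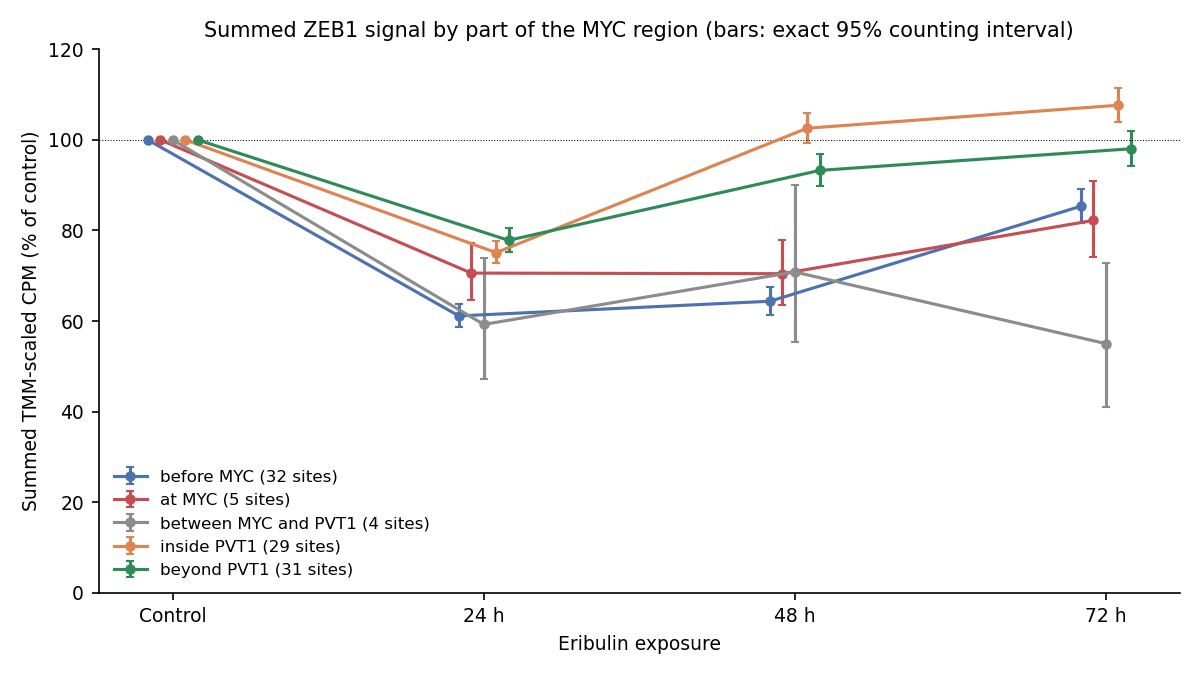
Summed TMM-scaled CPM as a percent of control (y axis) in control cells and after 24, 48 and 72 h (x axis), for sites before MYC, at MYC, between MYC and PVT1, inside PVT1 and beyond PVT1, with exact 95% counting intervals. At 72 h the values ranged from 55.0% between MYC and PVT1 to 108% inside PVT1.

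Beyond PVT1 the strong sites changed to different degrees and some weaker ones rose on the TMM scale. Site 76 (chr8:128176577-128177475) in the non-coding gene LOC124902020, the second strongest of the region in control cells, had pooled levels of 202, 227 and 218 CPM, against 277 CPM in control cells, and was called lower at each time (-0.45, -0.29 and -0.35). Site 78 (chr8:128183156-128183624) had pooled levels of 179, 208 and 203 CPM, against 209 CPM in control cells, and was called only at 24 h (-0.23). Close by, site 79 (chr8:128184558-128184940), named after its values were seen, had 57.3 and 51.1 CPM at 24 h, 101 and 93.0 CPM at 48 h and 66.0 and 97.8 CPM at 72 h, against 114 and 120 CPM in control cells. All treated libraries were below both controls, and it was called lower at each time (-1.11, -0.28 and -0.52). Site 92 (chr8:128541878-128542474) in LINC00824 had pooled levels of 100, 125 and 129 CPM, against 108 CPM in control cells, and was called higher at 72 h (0.26, and -1.25 under background scaling).

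Site 84 (chr8:128267297-128267886), 524.6 kb past MYC, had 68.9 and 68.0 CPM at 24 h, 56.7 and 73.1 CPM at 48 h and 134 and 129 CPM at 72 h, against 41.1 and 31.9 CPM in control cells. All treated libraries were above both controls. Its log2 changes of 0.89, 0.82 and 1.84 were called, and under background scaling they were -0.04, -0.60 and 0.33. Site 85 (chr8:128314560-128314925), 571.8 kb past MYC, had 26.7 and 22.1 CPM at 24 h, 43.8 and 39.1 CPM at 48 h and 59.3 and 60.7 CPM at 72 h, against 17.8 and 16.8 CPM in control cells. Its log2 changes of 0.49, 1.25 and 1.79 were called, and under background scaling they were -0.44, -0.17 and 0.28. With the assumed variation of 0.2 both sites passed at 72 h only, with adjusted p values of 0.00124 and 0.00296.

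Site 89 (chr8:128391095-128391441), 648.3 kb past MYC, had 25.7 and 26.9 CPM at 24 h, 33.3 and 36.2 CPM at 48 h and 22.9 and 24.4 CPM at 72 h, against 73.1 and 76.5 CPM in control cells. All treated libraries were under 37 CPM, and the log2 changes of -1.51, -1.10 and -1.66 were called. Over the 31 sites beyond PVT1, summed CPM was 1197, 1434 and 1508 at 24, 48 and 72 h, against 1538 in control cells. Of the 30 tested, 15, 8 and 9 were lower (50%, 26.7% and 30%, against 26.8%, 16.9% and 17.0% of all tested sites). The 6, 5 and 7 that were higher made up 20%, 16.7% and 23.3%, against 28.1%, 16.8% and 18.9% of all, so the higher share at 48 h was near that of all sites. The sites at the window's edges also had lower values. Site 1 was called lower at all 3 times (-0.95, -1.02 and -0.79), and site 101 at 24 h (-0.91) and 48 h (-2.07).

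The authors' peak lists give a second view of the region. A peak of the authors overlapped 62, 53 and 48 of the 101 sites at 24, 48 and 72 h (61.4%, 52.5% and 47.5%), against 96 in control cells (95.0%). Over all 52981 sites the shares were 61.3%, 39.4% and 32.1%, against 86.6% in control cells. A peak was listed in all 4 conditions at 43 sites (16 inside PVT1) and only in control cells at 33 sites (10 inside PVT1). Peak calling depends on depth, which was lower in treated libraries, and the part of depth in these losses was not tested. The median fold enrichment of the overlapping peaks, the authors' own value, was 9.55, 7.82 and 7.69 at 24, 48 and 72 h, against 10.9 in control cells.

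Counts at all tested sites linked to MYC, those with a MYC end as the nearest gene end within 100 kb, were also summed. The 10 sites had 358, 482 and 601 CPM at 24, 48 and 72 h, against 658 CPM in control cells, and site 30 made up 334 CPM of the control sum. The log2 ratios were -0.88, -0.45 and -0.13. Among the 272 other genes whose linked sites had a control sum within 2-fold of this, the 5 with the most similar course were EVI5L, which encodes a GTPase-activating protein, SYS1 (a Golgi protein), SLC39A11 (a zinc transporter), HPCAL1 (a calcium sensor) and PLB1 (a phospholipase). Their distances from MYC over the 3 log2 ratios were 0.104, 0.137, 0.166, 0.176 and 0.176, against a median of 0.711. For EVI5L the log2 ratios were -0.98, -0.44 and -0.13.

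Sites linked to the other genes of the MYC and MAX network gave more lower than higher calls. This list holds MYC, its paralogs, MAX and the MAX-like and antagonist factors. Without MYC it had 41 tested sites, of which 15, 9 and 10 were lower (36.6%, 22.0% and 24.4%) and 4, 2 and 6 were higher (9.76%, 4.88% and 14.6%) at 24, 48 and 72 h. Of all tested sites 26.8%, 16.9% and 17.0% were lower and 28.1%, 16.8% and 18.9% were higher. The list's medians were -0.41, -0.26 and -0.07 on the log2 scale. MXD4, a MAX partner that represses MYC targets, had a site 0.4 kb from a gene end (chr4:2262128-2262794) with 111 and 112 CPM at 24 h, against 51.0 and 53.2 CPM in control cells. This site rose by the quasi-likelihood test (log2 change 1.10, and 0.16 under background scaling). It did not pass with the assumed variation of 0.2 (adjusted p = 0.0569 by edgeR's likelihood ratio test).

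Related antagonists gave calls in both directions. A site of MXD3 (chr5:177311929-177312446) had 29.5 and 34.0 CPM at 48 h, against 19.3 and 16.8 CPM in control cells (0.81, and -0.61 under background scaling). A site of MNT (chr17:2396822-2397152), which encodes another MAX-binding repressor, had 22.0 and 38.0 CPM at 72 h, against 69.1 and 57.8 CPM in control cells (-1.10). A site of MXD1 (chr2:69997434-69997691), 54.6 kb from a gene end, had 27.1 and 30.8 CPM at 72 h, against 9.35 and 13.6 CPM in control cells (1.35, and -0.15 under background scaling). All 3 were called and their groups did not overlap. With the assumed variation of 0.2 they did not pass, with adjusted p values of 0.355, 0.113 and 0.0533 by edgeR's likelihood ratio test.

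Regulators of MYC turnover and expression had 81 tested sites, of which 22, 24 and 19 were lower (27.2%, 29.6% and 23.5%) and 26, 7 and 7 were higher (32.1%, 8.64% and 8.64%) at 24, 48 and 72 h, with medians of 0.15, -0.27 and -0.14. The 24 h shares are near those of all tested sites (26.8% and 28.1%). At 48 and 72 h, 16.9% and 17.0% of all tested sites were lower and 16.8% and 18.9% were higher. At these later times the list thus had a larger lower share and a smaller higher share than all sites. PIM1, a kinase that stabilises MYC, had sites in both directions. A site 39.0 kb from the gene (chr6:37130938-37131446) had 21.1 and 17.4 CPM at 24 h and 27.9 and 24.4 CPM at 72 h, against 65.7 and 59.0 CPM in control cells, and fell (-1.69 and -1.25). A further PIM1 site, 14.6 kb away (chr6:37189845-37190195), fell at 48 h (-1.36), when it had 15.1 and 19.2 CPM, against 43.1 and 45.2 CPM in control cells. The site 0.6 kb from a gene end (chr6:37170565-37170939) had 39.3 and 35.4 CPM at 48 h, against 11.9 and 9.03 CPM in control cells, and rose (1.82, and 0.40 under background scaling). In the likelihood ratio test with the assumed variation of 0.2, the PIM1 site 39.0 kb away passed at 24 h (adjusted p = 0.0037). It did not pass at 72 h (0.0622). Both PIM1 sites named for 48 h passed (0.0474 and 0.00281).

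In the same list, a site of HUWE1 (chrX:53683937-53684561), whose product is a ubiquitin ligase of MYC, had 130 and 115 CPM at 24 h, against 62.6 and 57.1 CPM in control cells, and rose (1.03, and 0.09 under background scaling). A site 61.9 kb from an end of SMAD3 (chr15:67127353-67127600), a TGF-beta effector that takes part in MYC repression, had 61.0 and 68.8 CPM at 72 h, against 9.92 and 11.3 CPM in control cells. It rose by 2.61 (2.20 to 3.05) on the log2 scale, and by 1.11 under background scaling. SMAD3 had 27 tested sites in all, of which 6 were lower and 3 higher at 72 h, with a summed log2 ratio of 0.08.

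Classical MYC targets had 101 tested sites, of which 37, 22 and 23 were lower (36.6%, 21.8% and 22.8%) and 19, 15 and 17 were higher (18.8%, 14.9% and 16.8%) at 24, 48 and 72 h, with medians of -0.23, -0.06 and 0.03. Of all tested sites 26.8%, 16.9% and 17.0% were lower and 28.1%, 16.8% and 18.9% were higher, so the list's shares at 48 and 72 h were not far from these. Under background scaling most sites of all 3 lists were lower, with 47, 50 and 47 of 51 for the network with MYC, 55, 74 and 72 of 81 for the regulators and 77, 91 and 93 of 101 for the targets. Most of all tested sites were also lower under that scaling (65.0%, 83.5% and 82.9% at 24, 48 and 72 h). A site 0.5 kb from an end of LDHA (chr11:18408631-18409299), the lactate dehydrogenase gene, had 5.53 and 7.38 CPM at 24 h and 16.6 and 12.5 CPM at 48 h, against 38.8 and 39.4 CPM in control cells, and fell (-2.59 and -1.42). LDHA had 4 tested sites in all, with 2 lower and 1 higher at 24 h and again at 48 h, and summed log2 ratios of -0.38 and -0.33. GADD45A and CDKN1A are growth arrest genes that MYC represses. Of the 9 tested sites linked to GADD45A, 4 were lower and 2 higher at 24 h, and 4 lower and 1 higher at 48 h, with summed log2 ratios of 0.13 and -0.24. Of the 4 linked to CDKN1A, 3 were lower and none higher at 24 h, and 1 was lower and 1 higher at 48 h, with summed log2 ratios of -0.62 and 0.03. The sites with the smallest p among the higher calls were as follows. A site of GADD45A (chr1:67682708-67683123) had 70.4 and 78.5 CPM at 24 h, against 24.9 and 31.3 CPM in control cells, and rose (1.41, and 0.48 under background scaling). A site of CDKN1A (chr6:36682555-36683041) had 78.6 and 80.4 CPM at 48 h, against 44.8 and 48.4 CPM in control cells, and rose (0.77, and -0.65 under background scaling). In the likelihood ratio test with the assumed variation of 0.2, the CDKN1A site did not pass (adjusted p = 0.339). The GADD45A site (0.0137) and the LDHA site (3.4e-05 at 24 h and 0.0386 at 48 h) did.

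At 72 h a site 54.0 kb from an end of TFRC (chr3:196135960-196136300), the transferrin receptor gene, had 6.77 and 4.53 CPM, against 28.0 and 26.1 CPM in control cells (-2.24). It was called, also with the assumed variation of 0.2 (adjusted p = 0.00215 by the likelihood ratio test). TFRC had 6 tested sites in all, of which 2 were lower and 2 higher at 72 h, with a summed log2 ratio of -0.20. Whether a site so far from a gene acts on it was not tested.

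Promoter sequence is shown for genes of these lists, to set ZEB1's letters beside its signal. The RefSeq table (GRCh38.p14, 250 bases before to 50 after each start) holds 57 of the 70 list genes, and 48 of these had a tested ZEB1 site over the promoter. The letters CAGGTG or CAGGTA, on either strand, occur in 28.1% of the 35116 promoters of the table, and in 8 of the 48 (16.7%), counting the first listed promoter of each gene. Of those 8, the site was called at some time for 3. Of the 40 without either motif it was called for 31, with 6 lower and 19 higher at 24 h, 7 lower and 5 higher at 48 h and 10 lower and 1 higher at 72 h. Of all tested sites 26.8%, 16.9% and 17.0% were lower and 28.1%, 16.8% and 18.9% were higher at those times. No share called at any time is given for all tested sites, so whether 3 of 8 or 31 of 40 is unusual cannot be told. HSPD1 and HSPE1, both among the 40, share 1 site, which was called higher at 24 h and is counted under both. The 3 promoters with a motif inside a called site are shown 5′ to 3′ on the gene's own strand, with the motif in capitals (CACCTG and TACCTG are the reverse complements). They were chosen after their values were seen.
MYCL: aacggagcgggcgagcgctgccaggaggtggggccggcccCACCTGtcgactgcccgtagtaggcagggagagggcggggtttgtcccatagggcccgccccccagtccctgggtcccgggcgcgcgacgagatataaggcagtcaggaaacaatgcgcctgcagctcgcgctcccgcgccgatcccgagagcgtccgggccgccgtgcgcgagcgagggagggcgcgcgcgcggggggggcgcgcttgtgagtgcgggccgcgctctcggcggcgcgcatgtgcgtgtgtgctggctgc
RBPJ: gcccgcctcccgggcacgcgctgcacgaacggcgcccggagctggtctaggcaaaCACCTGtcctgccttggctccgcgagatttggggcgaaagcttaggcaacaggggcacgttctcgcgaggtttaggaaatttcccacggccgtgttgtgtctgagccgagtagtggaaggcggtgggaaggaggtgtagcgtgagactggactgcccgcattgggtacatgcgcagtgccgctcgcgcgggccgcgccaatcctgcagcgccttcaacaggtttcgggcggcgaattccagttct
NPM1: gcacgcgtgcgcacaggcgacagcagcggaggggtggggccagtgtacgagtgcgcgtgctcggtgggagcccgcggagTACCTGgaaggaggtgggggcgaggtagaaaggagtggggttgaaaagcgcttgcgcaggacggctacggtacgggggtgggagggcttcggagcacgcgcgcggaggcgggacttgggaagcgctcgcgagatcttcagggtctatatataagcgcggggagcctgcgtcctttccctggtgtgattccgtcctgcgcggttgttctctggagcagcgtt

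MYCL encodes L-MYC, a paralog of MYC. Its promoter shown (chr1:39901868-39902167, minus strand) lies in a site with 36.2 and 32.2 CPM at 24 h, 45.3 and 35.4 CPM at 48 h and 49.1 and 58.0 CPM at 72 h, against 29.2 and 34.2 CPM in control cells. It was called higher at 72 h alone (0.76, interval 0.42 to 1.09; -0.74 under background scaling). RBPJ is the DNA-binding partner of Notch, which activates MYC in some tissues. The RBPJ promoter shown (chr4:26319496-26319795, plus strand) lies in a site with 91.5 and 86.4 CPM at 24 h, 78.6 and 70.9 CPM at 48 h and 79.6 and 64.3 CPM at 72 h, against 107 and 106 CPM in control cells. All treated libraries lay below both controls, and the site was called lower at each time (-0.26, -0.51 and -0.56). Further listed RBPJ promoters, without a motif, lie in another site (chr4:26320587-26321037). Its log2 changes were 0.32, -0.55 and -0.40, and it was called only at 48 h. The 4 tested sites linked to RBPJ by nearest gene end leave out the site shown. Of them 1 was lower and 3 were higher at 24 h, with a summed log2 ratio of 0.30.

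NPM1, a MYC target that encodes the nucleolar protein nucleophosmin, has the CAGGTA form. Its promoter (chr5:171387599-171387898, plus strand) lies in a site with 39.2 and 54.8 CPM at 24 h, 55.9 and 80.4 CPM at 48 h and 72.0 and 77.9 CPM at 72 h, against 91.5 and 82.9 CPM in control cells. It was lower at 24 h (-0.90, interval -1.15 to -0.66) and 48 h (-0.36) and not called at 72 h (-0.23). A match of letters is a description of the sequence and does not show that ZEB1 binds there.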

How the data were processed

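ZEB1 was profiled by CUT&RUN, per the labels' protocols, in 8 libraries, 2 per condition. The deposited count table holds counts per consensus site, as whole numbers without normalization, with 0 columns unmapped to a sample. Each condition has 1 deposited peak list with, per peak, the authors' score, fold enrichment (a ratio), -log10 q and -log10 p. Tools in the submitters' processing notes, without order or role, are MACS2 2.1.1, Bowtie2 2.2.6, featureCounts, bedtools 2.30.0, cutadapt 2.4, deepTools, Picard and bcl2fastq 2.20.0.422, and the build is hg38. Whether reads or fragments were counted, and the annotation, are not given in the sources used here.

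Counts were fitted over all consensus sites with edgeR 4.0.16 in R 4.3.3 (TMM factors, filterByExpr by condition, quasi-likelihood F test, condition as the only term, Benjamini-Hochberg over 46436 tested sites, call under 0.05). The estimated biological coefficient of variation was 0.00988, which is almost no variation beyond counting noise. Log2 changes are edgeR's, and their 95% intervals are exact counting intervals of the pooled ratio. The background scaling uses the genome-wide background level recovered from the fold and p columns of the peak lists, and the assumed-variation test is edgeR's likelihood ratio test on pooled counts. Alternatives included DESeq2 1.42.0. Peak overlaps used bedtools 2.31.1, any shared base counting. The fit was tested on simulated data.

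Gene positions come from the RefSeq table of GRCh38.p14, whose build the deposited coordinates share. It gives no strand or exons, and all 70 symbols of the 3 lists matched. A site was linked to whichever microRNA or protein-coding gene had the nearest end, up to 100 kb away. The region, the lists and the tests were chosen with earlier results of these data known. The sites named are those within 50 kb of MYC, the 5 of highest mean level inside and outside PVT1, the 3 with the smallest p per time and direction, those with a treated peak but no control peak, the window's edges, and per list, time and direction the site with the smallest p. A site that this rule names is not reported here. The most similar genes were the 5 nearest to MYC in Euclidean distance. No sequence of chromosome 8 is shown. The p values measure only the spread between libraries, which may be technical.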

Additional observations from a re-analysis of the deposited data

Results flagged for a closer look

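At 16 of the region sites that the naming rule gave, the change from control differed between times by edgeR's contrast of those times (Benjamini-Hochberg adjusted over all tested sites). Differences below are log2 values of the later over the earlier time on the TMM scale. Under background scaling 5 of them fell below 0, those of site 22 (-0.21) and site 48 (-0.28) for 72 over 24 h, site 78 for 48 over 24 h (-0.27) and site 92 for 48 over 24 h (-0.18) and 72 over 24 h (-0.21). A further 5 stayed above 0 but were no longer called, for site 16 (0.34), site 46 (0.06) and site 64 (0.23) for 72 over 24 h and for site 48 (0.15) and site 85 (0.27) for 48 over 24 h.

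Before MYC, signal was higher at 72 h than at 24 h at site 30 (1.22), site 23 (0.90), site 16 (0.90) and site 22 (0.36). At site 30 the 48 h value was above that of 24 h by 0.83 and the 72 h value above that of 48 h by 0.39, and at site 23 the last step was 0.61. Site 18 went down between 24 and 48 h (-0.76).

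Inside PVT1, site 70 was higher at 48 h than at 24 h by 1.15, at 72 h than at 48 h by 0.37, and at 72 h than at 24 h by 1.51. Site 49 was higher at 48 h (1.27) and 72 h (1.12) than at 24 h, and site 64 was higher at 72 h than at 24 h (0.80). Site 46 was higher at 72 h than at 48 h (0.41) and 24 h (0.63). Site 48 was higher at 48 h (0.64) and 72 h (0.29) than at 24 h and lower at 72 h than at 48 h (-0.34). Site 52 was lower at 72 h than at 48 h (-0.51) and 24 h (-0.63), and site 56 was lower at 48 h (-0.37) and 72 h (-0.53) than at 24 h.

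Beyond PVT1, site 84 was higher at 72 h than at 48 h (1.02) and 24 h (0.94). Site 85 was higher at 48 h (0.76) and 72 h (1.29) than at 24 h, as was site 92 (0.31 and 0.36). Site 78 was higher at 48 h than at 24 h (0.22).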

How the results depend on the processing

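Counts of lower and higher region sites stayed within 1.5 times of the reported values with DESeq2 size factors, library totals and no filter on low counts. With the replicate number as a block they were 51 and 13, 38 and 10, and 31 and 13 at 24, 48 and 72 h, as without it. Same-numbered libraries deviated with correlations of -0.00462 to 0.0139, so the numbers do not pair them.

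With DESeq2's Wald test, 6 sites were higher at 24 h, 20 lower and 5 higher at 48 h, and 18 lower and 8 higher at 72 h. Between times it gave 1 lower and 12 higher for 48 over 24 h, 0 lower (4 at an unadjusted p under 0.05) and 3 higher for 72 over 48 h, and 4 lower and 17 higher for 72 over 24 h. With the assumed variation of 0.2 the counts were 19 and 1, 9 and 0, and 6 and 4 at 24, 48 and 72 h, and between times 0 and 2, 0 and 0, and 0 and 4. Factors from low-count sites gave 8 higher at 24 h. Within 500 kb, with 57 tested sites, 4 were higher at 24 h, 25 lower and 2 higher at 48 h, and 4 higher at 72 h.

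Background scaling gave, at 24, 48 and 72 h, 84, 91 and 89 lower and 1, 0 and 1 higher (for the 0, also 0 at an unadjusted p under 0.05). Against control it turned the sign at 14 called values of the region's named sites: site 16 at 48 h (-0.056), site 18 at 48 and 72 h (-0.49 and -0.25), site 43 at 24 and 72 h (-0.46 and -1.09), site 46 at 72 h (-0.87), site 48 at 48 h (-1.22), site 70 at 48 and 72 h (-0.41 and -0.12), site 84 at 24 and 48 h (-0.039 and -0.60), site 85 at 24 and 48 h (-0.44 and -0.17) and site 92 at 72 h (-1.25). Among the named sites of other genes it did so for MXD3 at 48 h (-0.61), MXD1 at 72 h (-0.15), CDKN1A at 48 h (-0.65) and MYCL at 72 h (-0.74). Between times, where this alternative was added after the data were seen, it gave 40 lower and 10 higher for 48 over 24 h and 28 and 11 for 72 over 24 h, and turned site 22 (-0.21), site 48 (-0.28) and site 92 (-0.21) for 72 over 24 h and site 78 (-0.27) and site 92 (-0.18) for 48 over 24 h. Which scaling is nearer the truth was not tested.

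The log2 ratio of the summed region signal was -1.41, -1.61 and -1.55 at 24, 48 and 72 h under background scaling, and -0.65, -0.26 and -0.11 with the factors from low-count sites. Library totals gave -0.38 for 24 h. The 500 kb window gave -0.54 for 24 h and -0.084 for 72 h. Within 500 kb, PVT1 minus other sites was 0.25, 0.46 and 0.39. Without site 70, left out after its values were seen, it was 0.055, 0.15 and -0.092 at 24, 48 and 72 h, and the sites at MYC minus the others was -0.12 at 72 h, which no longer excluded 0. With a peak required to cover at least 50% of a site, 35 sites had a 48 h peak. Linked within 5 kb (96 sites, not 233), the 3 lists had 27 lower and 24 higher, 21 and 14, and 21 and 14, against 81 and 49, 62 and 24, and 55 and 30 within 100 kb. With this shorter link, 24 h calls were nearly even between directions, so the excess of lower calls seen within 100 kb was largely lost. Genome-wide, 26.8% of tested sites fell and 28.1% rose after 24 h. For the 2 later times more list sites still fell than rose. The genome-wide shares were then 16.9% lower and 16.8% higher for 48 h, and 17.0% lower and 18.9% higher for 72 h.

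Leaving out 1 library in turn, the count of higher sites at 24 h was 8 to 13 and that of lower sites at 72 h 18 to 32. For 48 over 24 h, 5 to 10 were lower. For 72 over 48 h, 0 to 4 were lower and 3 to 10 higher, and for 72 over 24 h, 4 to 7 were lower. The summed log2 ratio at 24 h was -0.52 to -0.47. Depth limits the weaker sites: 6 of the 101 had too few counts to be tested. Each condition is 1 sample, so variation between cultures was not measured.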
